A study of Mus musculus with 24 samples.

Results

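The interferon response and the display of peptides on MHC class I were examined in N organoids, cultures of normal pancreatic duct cells, and KP organoids, cultures of pancreatic tumour cells, through 34 genes chosen by name. These 34 genes were 33 of the 19895 entries of the deposited table, because Parp9 and Dtx3l share 1 entry. Of the 33 entries, 32 had reads in all 24 libraries and could be tested, among 12209 entries that could be tested in all. Nlrc5, the transcriptional activator of MHC class I genes, had 0 reads in 2 libraries and at most 32 in any, so it was too low to assess. Mx2, Rsad2 and Usp18 were tested with fewer than 30 reads in 11 to 15 libraries each, so counting error adds to the spread between their replicates. The entry of Adar also lists Chrnb2, so its value cannot be given to Adar alone.

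N organoids were grown from pancreatic ducts of wild-type C57Bl/6J mice, and KP organoids from tumours of mice on the same background that carry Pdx1-Cre together with conditional mutant alleles, among them Trp53+/LSL-R172H, which Cre driven by the Pdx1 promoter switches on in pancreatic cells. Both were treated for 1 h with vehicle (DMSO) or with 10 nM CR-31, a rocaglate that inhibits the RNA helicase eIF4A, in medium without EGF and N-acetylcysteine, and all groups received cycloheximide before lysis. There were 3 replicates in each of these 4 groups. From every one of the 12 lysates, total mRNA and polysome-associated mRNA were sequenced as separate libraries, the latter being mRNA bound by 3 or more ribosomes. The labels do not say whether replicates came from separate mice or cultures, so the p-values measure the spread between these samples, which may be technical.

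Cells that sense viral RNA or foreign DNA release interferons, and type I interferon binds a receptor that activates STAT2. With IRF9 and a partner it forms a complex that binds an element called ISRE in the promoters of interferon-stimulated genes. Interferon gamma acts through another element, GAS, and it raises IRF1 and the machinery of antigen presentation. In that machinery an immunoproteasome cuts proteins, the TAP transporter carries the peptides into the endoplasmic reticulum, tapasin loads them, and MHC class I chains show them with beta-2-microglobulin at the cell surface to CD8 T cells. Epithelial cells express a low level of many of these genes without any infection.

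The promoters of several members carry the elements through which interferons act, and those of 9 members are shown here. All 9 were called lower in KP in both fractions below. The RefSeq promoter table on GRCm38.p6, which covers 250 bases before to 50 after a start site, held 25 of the 34 members. The ISRE core GAAANNGAAA was found on either strand in 11 of these 25 (44%), against 3.99% of the 27025 genes of that table, and the GAS core TTCNNNGAA in 8 (32%), against 9.55%. Both were found in 3 members and neither in 9, and overlapping matches of 1 motif were counted as 1 gene. A match is a description of letters in this window and not a binding site. In the windows below, on the strand of the gene, the capitals mark the matches of 1 core only. Those of Isg15, Ifit1, Ifit3, Rsad2, Bst2, B2m and Stat2 show ISRE matches, and those of Irf1 and Psmb8 show GAS matches. The window of Bst2 also holds a GAS core that overlaps its ISRE matches and is not marked. Matches before the start that are not shown are those of Oas1a (2 ISRE and 1 GAS), which was called in neither fraction. The GAS matches of Ifit2 and Eif2ak2 are not shown either.
Isg15, chr4:156200860-156200911, minus strand, 3 overlapping matches between 78 and 57 bases before the start: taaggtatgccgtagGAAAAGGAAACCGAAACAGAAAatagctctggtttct
Ifit1, chr19:34640770-34640828, plus strand, 2 matches: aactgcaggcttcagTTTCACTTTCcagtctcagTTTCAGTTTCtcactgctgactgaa
Ifit3, chr19:34583358-34583431, plus strand, 2 matches: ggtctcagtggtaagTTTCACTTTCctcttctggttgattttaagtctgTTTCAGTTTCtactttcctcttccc
Rsad2, chr12:26456548-26456587, minus strand, 1 match: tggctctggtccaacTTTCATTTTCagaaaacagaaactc
Bst2, chr8:71537572-71537617, minus strand, 2 overlapping matches: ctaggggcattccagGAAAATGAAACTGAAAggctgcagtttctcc
B2m, chr2:122147533-122147572, plus strand, 1 match: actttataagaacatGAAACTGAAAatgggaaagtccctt
Stat2, chr10:128270261-128270300, plus strand, 1 match: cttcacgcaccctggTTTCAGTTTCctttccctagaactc
Irf1, chr11:53769909-53769947, plus strand, 1 match: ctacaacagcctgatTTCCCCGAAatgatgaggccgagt
Psmb8, chr17:34198083-34198121, plus strand, 1 match: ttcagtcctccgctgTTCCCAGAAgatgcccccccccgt

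The libraries held 47308461 to 267463046 counted reads. The 8 duct epithelium markers summed to at least 5103 CPM (read counts divided by the TMM-scaled library size, the usual CPM scale) in every library, with the keratin Krt8 at 1503 to 4285 and Cftr at 0.87 to 11.4 CPM. Those of fibroblasts, endothelium and red cells summed to under 1 CPM in each. The 10 leukocyte markers together reached 49.3 CPM in the polysome library of vehicle-treated KP replicate 3, against 3.88 and 3.29 in the other polysome libraries of its group and 2.48 in the total mRNA library of its own lysate. The macrophage gene Lyz2 was at 22.5 CPM there and at 1.10 or less in every other library. The 6 T cell markers summed to 2.22 to 4.23 CPM in KP and 3.11 to 10.004 in N, nearly all of it Lck, while Cd3d was at 0 in all 24 libraries and Cd3e, Cd3g, Cd4 and Cd8a were at 0.047 or less. The 6 B cell markers summed to 0.20 to 1.41 CPM, mostly Cd79b, with Ms4a1 at 0 in all 24. The leukocyte list summed to 21.4 to 25 CPM in the 4 libraries of N replicate 2, where Lcp1 and Cytip made up most of it and Lyz2 was at 1.10 or less, and to 9.84 or less in the other N libraries. The main results on the members in polysome-associated mRNA of vehicle-treated KP are therefore also given without that library. In N organoids the 8 myeloid and dendritic markers summed to 16.4 to 31.2 CPM, mostly from Cd68 and Csf1r, and in the other KP libraries to 3.87 to 7.33. The MHC class II list summed to 3.18 to 24.6 CPM in N and to 0.93 or less in KP apart from 5.89 in that polysome library, and Cd74, the invariant chain, made up 92.4% to 99.5% of it in N. The class II chains H2-Aa, H2-Ab1 and H2-Eb1 and their activator Ciita were at 0.34 or less in every library. Their part in the differences between KP and N was not tested. N and KP libraries were never sequenced on the same lane, so the organoid type and the lane cannot be told apart. In both types, vehicle-treated replicate 2 was on the lane of replicate 1 and CR-31-treated replicate 2 on that of replicate 3. Treatment and lane are therefore partly mixed in the CR-31 comparisons. In such bulk samples, fewer cells of a type and less RNA per cell cannot be told apart either.

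How strongly the members are expressed in normal duct organoids was compared per length of transcript, using the RPKM values that the authors deposited. In total mRNA of vehicle-treated N organoids, B2m, which encodes beta-2-microglobulin, was the highest of the 33 entries at 443 ± 128 RPKM (SD, n = 3). It was followed by Bst2, which tethers budding virions to the cell, at 95.6 ± 12.2 RPKM and by Tapbp, which encodes tapasin, at 47.7 ± 12.1 RPKM. The ranges of these 3 genes over the replicates did not touch each other. Irf1 (22.4 ± 4.25 RPKM), Psmb10 (17.3 ± 5.21) and Ifi35 (15.4 ± 3.62) came next, and each overlapped its neighbour in this order. The lowest of the tested entries were Mx1 at 0.197 and Mx2 at 0.196 RPKM. In KP organoids B2m, Bst2 and Tapbp kept the first 3 places, at 179 ± 45, 40.7 ± 8.40 and 23.5 ± 6.84 RPKM, while Psmb8 went from place 7 to 15 and Ifit3 from place 16 to 28.

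The first comparison asked which of these mRNAs differ between tumour and normal organoids under vehicle. Log2 fold changes were below 0 for 30 of the 32 tested entries in total and for 31 in polysome-associated mRNA. In total mRNA 22 of the 32 tested entries were called lower and 0 higher at an adjusted p under 0.25, the threshold of the study (edgeR's quasi-likelihood test with Benjamini-Hochberg adjustment over the 12209 tested, n = 3 each), where 15.2% of all tested entries were lower. The study used that threshold in another method, anota2seq, together with limits on effect size and slope. In polysome-associated mRNA 25 were called lower and 0 higher, against 22.9% lower among all. At an adjusted p under 0.05, 14 members were lower in total mRNA (5.29% of all) and 18 in polysome-associated mRNA (7.58% of all). The median log2 fold change of the members was -1.25 in total and -1.43 in polysome-associated mRNA, while that of all tested entries was -0.027 and -0.049. For 22 members in each fraction, all 3 KP libraries lay below all 3 N libraries, which held for 16.4% of all tested entries in total and 16.3% in polysome-associated mRNA. Without vehicle-treated KP replicate 3, 24 members were lower in polysome-associated mRNA, against 20.2% of all tested entries, and the median was -1.68. At an adjusted p under 0.05, 17 were lower without it, against 5.12% of all. Bst2 was the member whose call was lost (adjusted p = 0.283), and the log2 fold change of Oas1a went from -0.10 to 0.12, not called in either fit. When each of the 6 vehicle-treated libraries of a fraction was left out in turn, 15 of the 22 calls in total mRNA and 19 of the 25 in polysome-associated mRNA were kept in all 6 fits. The calls lost in 1 or more were those of Dtx3l with Parp9, Ifit2, Irf1, Irf7, Mx2, Psmb9 and Stat2 in total mRNA (highest adjusted p of 0.339 to 0.607) and of B2m, Bst2, Dhx58, Eif2ak2, Ifit2 and Irf7 in polysome-associated mRNA (0.253 to 0.741).

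**Figure D1:**
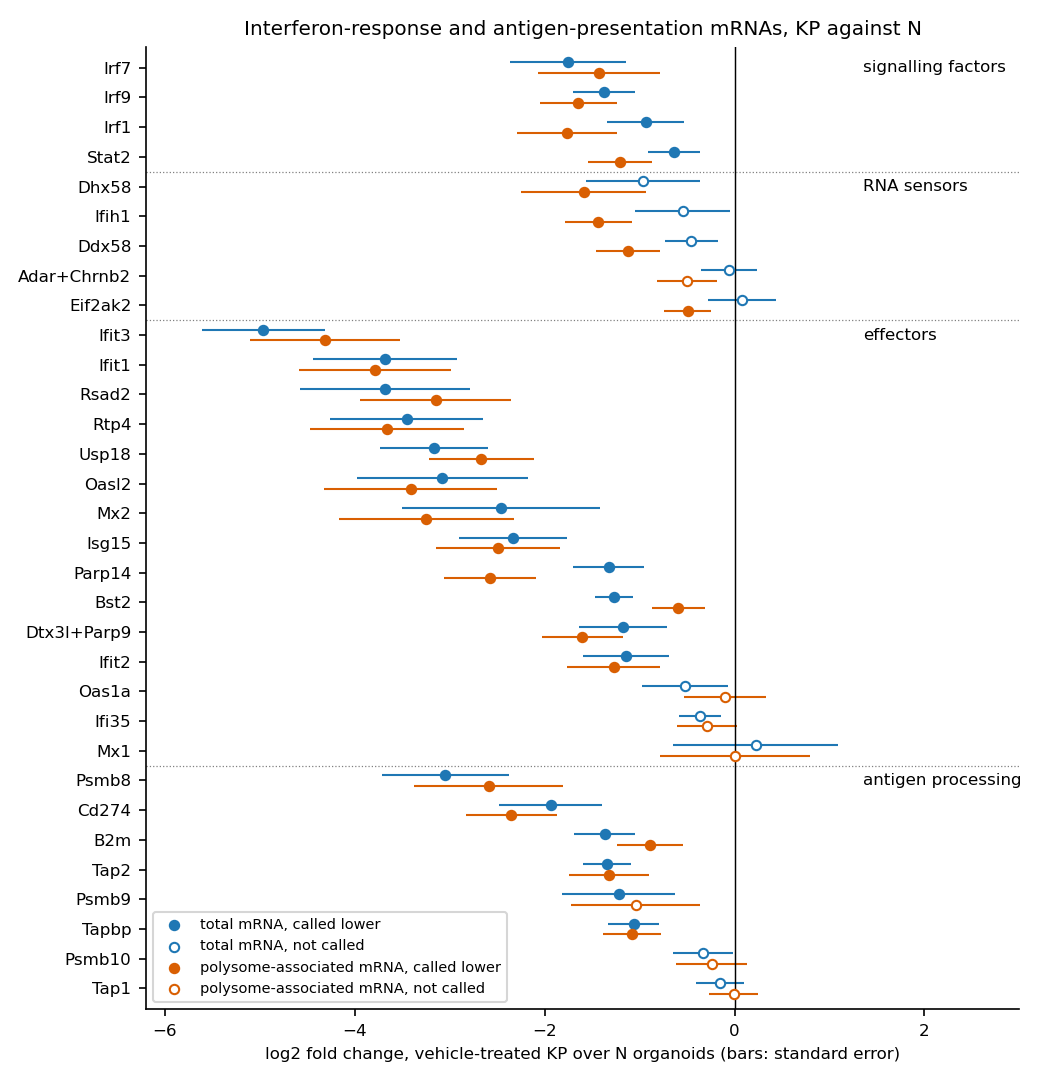
Log2 fold change of the 32 tested entries between vehicle-treated KP and N organoids, with total mRNA in blue, polysome-associated mRNA in orange, the standard error as bars and filled points for adjusted p under 0.25. Ifit3 lies furthest to the left in both fractions, and the points of Mx1, Oas1a, Ifi35, Tap1 and Psmb10 are open in both.

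In both fractions 21 of the 32 entries were called lower, which held for 11.9% of all tested entries, and among the 21 were 12 of the 15 effectors, all 4 signalling factors and 5 of the 8 tested antigen processing genes. In polysome-associated mRNA alone 4 were called lower, against 11% of all, and they were the RNA sensors Ddx58, Dhx58, Ifih1 and Eif2ak2. Psmb9 was called in total mRNA alone, and 6 entries were called in neither, namely Adar with Chrnb2, Ifi35, Mx1, Oas1a, Psmb10 and Tap1. A call in 1 fraction and not in the other is not a tested difference between them. There were 9 members over 4-fold lower in both fractions, against 3.28% of all tested entries, which were Ifit1, Ifit3, Isg15, Mx2, Oasl2, Psmb8, Rsad2, Rtp4 and Usp18. The 11 tested entries with an ISRE core had a median log2 fold change of -1.27 in total and -1.21 in polysome-associated mRNA, and the 14 without one had -1.16 and -1.35. The 8 with a GAS core had -0.73 and -0.55, and the 17 without had -1.37 and -1.44.

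Among the signalling factors, Irf9, the DNA-binding part of the complex with STAT2, had 19.2, 32.6 and 37.5 CPM in total mRNA of the vehicle-treated N replicates 1, 2 and 3. It had 12, 10.2 and 12.2 CPM in KP, so every KP library lay below every N library. The log2 fold change was -1.38 (standard error 0.33, edgeR, adjusted p = 0.0264). In polysome-associated mRNA, Irf9 had 15.2, 25.4 and 47.2 CPM in N and 9.62, 8.54 and 9.90 in KP, and the log2 fold change was -1.64 (standard error 0.40, adjusted p = 0.021) and -1.69 without vehicle-treated KP replicate 3. The KP replicates were close together and the N replicates spread widely.

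Irf7, which amplifies the production of type I interferon, had 5.80, 12.4 and 26.7 CPM in total mRNA of N and 4.18, 3.58 and 5.55 in KP. Its log2 fold change was -1.75 (standard error 0.61, edgeR, adjusted p = 0.0983). Without N replicate 3 the log2 fold change was -1.02 (adjusted p = 0.401), and without vehicle-treated KP replicate 1 it was -1.71 (adjusted p = 0.268), so neither fit called it. In polysome-associated mRNA, Irf7 had 3.74, 7.17 and 25.6 CPM in N and 4.03, 3.55 and 5.98 in KP, and the groups overlapped. The log2 fold change of -1.43 there (adjusted p = 0.145) became -0.27 (adjusted p = 0.741) without N replicate 3, and it was not called without KP replicate 1 or 2 either (adjusted p of 0.307 and 0.310). Without vehicle-treated KP replicate 3 it was -1.68 (adjusted p = 0.169).

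Irf1, which interferon gamma induces, which drives antigen presentation genes and whose promoter window holds a GAS core, had 37.9, 58.3 and 48.3 CPM in total mRNA of N and 21.8, 19 and 34.7 in KP. The groups did not overlap, and the log2 fold change was -0.94 (standard error 0.41, edgeR, adjusted p = 0.187). It was not called without vehicle-treated KP replicate 1 or 2 or N replicate 2 or 3 (adjusted p of 0.339 to 0.426). In polysome-associated mRNA, Irf1 had 34.6, 42.8 and 169 CPM in N and 21.3, 17.4 and 33.8 in KP, where N replicate 3 stood far above the others. The log2 fold change there was -1.77 (standard error 0.53, adjusted p = 0.0424), -0.68 without N replicate 3 (adjusted p = 0.156) and -2.09 without vehicle-treated KP replicate 3 (adjusted p = 0.0526). Stat2 was lower in KP in both fractions, with log2 fold changes of -0.64 in total (adjusted p = 0.183) and -1.21 in polysome-associated mRNA (adjusted p = 0.0355), the latter being -1.51 without that library.

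Of the 5 entries for RNA sensors, 0 were called lower in total mRNA (15.2% of all tested entries) and 4 in polysome-associated mRNA (22.9% of all). Dhx58, which encodes the regulator LGP2, had 0.72, 1.97 and 1.96 CPM in total mRNA of N and 0.78, 0.69 and 0.90 in KP, with overlap between the groups and a log2 fold change of -0.97 (standard error 0.60, edgeR, adjusted p = 0.357). In polysome-associated mRNA it had 0.77, 1.19 and 4.14 CPM in N and 0.64, 0.35 and 1.03 in KP, and its log2 fold change of -1.59 (adjusted p = 0.118) became -0.53 (adjusted p = 0.528) without N replicate 3 and -2.02 without vehicle-treated KP replicate 3. It was not called without KP replicate 1 or 2 either (adjusted p of 0.260 and 0.294), whereas in total mRNA Dhx58 was called without N replicate 1 (adjusted p = 0.198). Ifih1, which encodes the sensor MDA5, had 2.68, 1.74 and 2.59 CPM in total mRNA of N and 1.61, 1.46 and 1.73 in KP. The KP libraries were all below the N libraries by a narrow margin, and the log2 fold change was -0.55 (adjusted p = 0.552).

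In polysome-associated mRNA the gap in Ifih1 was wider, with 5.46, 6.89 and 12.3 CPM in N and 3.22, 2.50 and 3.38 in KP. The log2 fold change was -1.44 (standard error 0.35, edgeR, adjusted p = 0.0223) and -1.52 without vehicle-treated KP replicate 3. Ddx58, which encodes the sensor RIG-I, had 5.75, 8.23 and 5.82 CPM in total mRNA of N and 4.76, 4.39 and 5.29 in KP, a log2 fold change of -0.46 (adjusted p = 0.345). In polysome-associated mRNA it had 5.96, 10.1 and 8.60 CPM in N and 3.39, 2.97 and 4.93 in KP, without overlap, and its log2 fold change was -1.13 (adjusted p = 0.0431) and -1.37 without vehicle-treated KP replicate 3. Eif2ak2, which encodes the kinase PKR that halts translation when it binds double-stranded RNA, had total mRNA levels of 8.86 ± 3.07 CPM in N and 9.34 ± 2.09 in KP (SD, n = 3). It was at 24.0 ± 2.06 and 17 ± 2.15 CPM in polysome-associated mRNA.

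**Figure D2:**
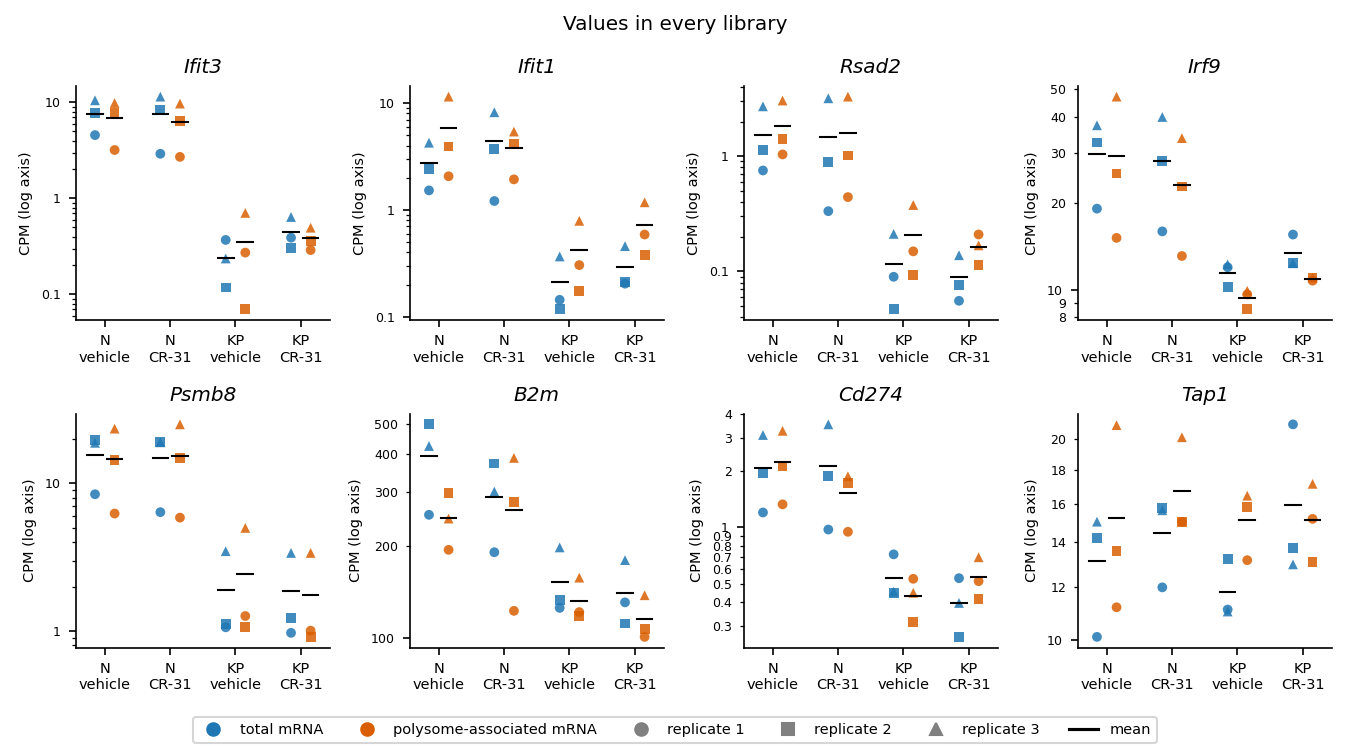
CPM on a log axis of 8 members in every library, by organoid type and treatment, with total mRNA in blue, polysome-associated mRNA in orange, a marker shape for each replicate number and a line at the mean of 3. In Ifit3, Ifit1, Rsad2 and Psmb8 every KP library lies below every N library of the same fraction, and in Tap1 the groups overlap.

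The effectors held the widest differences. Ifit3, whose product binds viral RNA together with IFIT1 and whose window holds 2 ISRE cores, had 4.56, 7.74 and 10.5 CPM in total mRNA of the vehicle-treated N replicates and 0.37, 0.12 and 0.24 in KP. The lowest N library was thus far above the highest KP library. Ifit3 was 31.2-fold lower in KP (log2 fold change -4.96, standard error 0.65, edgeR, adjusted p = 0.00211). In polysome-associated mRNA, Ifit3 had 3.19, 7.77 and 9.85 CPM in N and 0.27, 0.070 and 0.71 in KP, and the log2 fold change was -4.32 (standard error 0.79, adjusted p = 0.00688). The highest of these KP values was in replicate 3, the library with leukocyte markers, and without it the log2 fold change was -5.28. Some KP libraries had as few as 6 reads of Ifit3, so the size of the fold change is less certain than its direction.

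Ifit1, which recognises RNA caps that lack methylation, had 1.52, 2.41 and 4.26 CPM in total mRNA of N and 0.14, 0.12 and 0.37 in KP. The log2 fold change was -3.68 (standard error 0.76, edgeR, adjusted p = 0.0144). In polysome-associated mRNA it had 2.07, 3.92 and 11.5 CPM in N and 0.30, 0.18 and 0.79 in KP, a log2 fold change of -3.79 (adjusted p = 0.0122) and of -4.58 without vehicle-treated KP replicate 3. Rsad2, which encodes viperin, had 0.75, 1.14 and 2.71 CPM in total mRNA of N and 0.090, 0.047 and 0.21 in KP. Its log2 fold change was also -3.68 (standard error 0.89, adjusted p = 0.0276). In polysome-associated mRNA it was -3.15 (adjusted p = 0.0239) and -3.88 without vehicle-treated KP replicate 3.

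In the same way Oasl2, a relative of the oligoadenylate synthetases, had 2.18, 7.29 and 17.9 CPM in polysome-associated mRNA of N and 0.30, 0.72 and 1.56 in KP. Its log2 fold change was -3.41 (standard error 0.91, edgeR, adjusted p = 0.0286) and -4.16 without vehicle-treated KP replicate 3. Rtp4, a transporter-like protein that interferon induces, had 3.67, 9.45 and 16.6 CPM in N and 0.47, 0.43 and 1.45 in KP, and the log2 fold change was -3.66 (standard error 0.81, adjusted p = 0.0147) and -4.45 without that library. In both genes replicate 1 was the lowest N library and replicate 3 the highest N and the highest KP library. Isg15, a ubiquitin-like modifier, had total mRNA levels of 5.20 ± 2.22 CPM in N and 1.03 ± 0.34 in KP (SD, n = 3). Usp18, which removes ISG15 from proteins and dampens the receptor, was at 0.99 ± 0.075 and 0.11 ± 0.062 CPM.

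Not all effectors differed. Mx1 had 0.092, 0.60 and 1.05 CPM in total mRNA of N and 0.67, 0.54 and 0.81 in KP. The log2 fold change of Mx1 was 0.22 (standard error 0.87, edgeR, adjusted p = 0.91). Its neighbour and relative Mx2 had 0.24, 0.43 and 0.82 CPM in N and 0.072, 0.035 and 0.15 in KP, and the log2 fold change was -2.46 (standard error 1.04, adjusted p = 0.173). Oas1a, which activates RNase L through oligoadenylates, was at 11.8 ± 2.68 CPM in N and 8.22 ± 3.22 in KP. Ifi35 was at 21.3 ± 4.67 and 16.6 ± 3.26 CPM. The N and KP libraries of Mx1, Oas1a and Ifi35 overlapped in both fractions.

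Antigen processing genes were split in the same way. Psmb8, an interferon-induced catalytic subunit of the immunoproteasome with a GAS core in its window, had 8.42, 19.6 and 18.8 CPM in total mRNA of the vehicle-treated N replicates and 1.06, 1.12 and 3.47 in KP. All KP libraries lay below all N libraries, and Psmb8 was 8.26-fold lower in KP (log2 fold change -3.05, standard error 0.67, edgeR, adjusted p = 0.0185). In polysome-associated mRNA, Psmb8 had 6.24, 14.4 and 23.4 CPM in N and 1.27, 1.06 and 4.99 in KP, and the log2 fold change was -2.59 (standard error 0.79, adjusted p = 0.0452) and of -3.65 without vehicle-treated KP replicate 3. The other inducible subunits differed less or overlapped. Psmb9 was at 3.68 ± 2.12 CPM in total mRNA of N and 1.58 ± 0.64 in KP (adjusted p = 0.237), and Psmb10 at 22.5 ± 7.30 and 17.9 ± 4.16 (adjusted p = 0.569).

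The constitutive counterparts of these subunits, Psmb5, Psmb6 and Psmb7, went the other way. All 3 were called higher in polysome-associated mRNA of KP, with log2 fold changes of 0.90, 0.73 and 0.57 (edgeR, adjusted p of 0.0362 to 0.114), where 20.4% of all tested entries were called higher. Without vehicle-treated KP replicate 3 these were 1.04, 0.83 and 0.57 (adjusted p of 0.0402 to 0.167). The polysome call of Psmb5 was kept in all 6 fits that leave out 1 library, while Psmb7 was not called without KP replicate 1 (0.40, adjusted p = 0.297) and Psmb6 was not called without KP replicate 1 or N replicate 2 (adjusted p of up to 0.291). In total mRNA only Psmb7 was called, at 127 ± 12.6 CPM in N and 174 ± 9.64 in KP (log2 fold change 0.45, adjusted p = 0.0868), a call that was lost without KP replicate 1 (adjusted p = 0.278), while Psmb5 had a log2 fold change of 0.38 (adjusted p = 0.264).

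B2m, the invariant chain of MHC class I molecules with an ISRE core in its window, had 253, 500 and 425 CPM in total mRNA of N and 125, 133 and 198 in KP, without overlap. Its log2 fold change was -1.37 (standard error 0.32, edgeR, adjusted p = 0.0247). In polysome-associated mRNA it had 194, 298 and 246 CPM in N and 122, 118 and 158 in KP, a log2 fold change of -0.89 (adjusted p = 0.0973). This call was lost without N replicate 2 (-0.72, adjusted p = 0.253), and the value was -1.04 without vehicle-treated KP replicate 3 (adjusted p = 0.118). Cd274, which encodes the checkpoint ligand PD-L1, had 1.20, 1.94 and 3.09 CPM in total mRNA of N and 0.72, 0.45 and 0.46 in KP, a log2 fold change of -1.94 (adjusted p = 0.0475). In polysome-associated mRNA it had 1.33, 2.10 and 3.25 CPM in N and 0.53, 0.32 and 0.45 in KP, and the log2 fold change was -2.35 (standard error 0.48, adjusted p = 0.0108). Without vehicle-treated KP replicate 3 it was -2.38, and Cd274 had 27 reads in its lowest library.

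Of the chains of the peptide transporter, Tap2 was called lower and Tap1 was not. Tap2 was at 7.62 ± 1.05 CPM in total mRNA of N and 3.00 ± 0.44 in KP (SD, n = 3), and the log2 fold change was -1.34 (standard error 0.25, edgeR, adjusted p = 0.00997). Tap1 had 10.1, 14.2 and 15 CPM in N and 11.1, 13.2 and 11 in KP, and the log2 fold change was -0.16 (standard error 0.26, adjusted p = 0.763). In polysome-associated mRNA the log2 fold change of Tap1 was -0.010 (standard error 0.26) and -0.074 without vehicle-treated KP replicate 3. Tapbp was lower in KP in both fractions, with log2 fold changes of -1.06 (adjusted p = 0.0304) and -1.08 (adjusted p = 0.0366), the latter being -1.42 without that library.

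The other genes of the pathway were taken from 8 lists. The 10 interferon ligand genes, Ifnb1, Ifng and interferons alpha, epsilon, kappa and lambda, had at most 10 reads together in any library, or 0.055 CPM, and 5 of them had 0 reads in all 24, so none was tested. Of the 11 receptor and JAK-STAT genes, 5 were called lower and 1 higher in total mRNA of KP (edgeR, adjusted p under 0.25), against 15.2% lower and 13% higher among all tested entries, with a median log2 fold change of -0.41. In polysome-associated mRNA 7 were lower and 1 higher, against 22.9% and 20.4% of all, with a median of -0.77. Both chains of the interferon gamma receptor had the largest differences of that list in total mRNA. Ifngr2 had 174, 297 and 346 CPM in total mRNA of N and 68.9, 84.2 and 95.1 in KP (log2 fold change -1.72, standard error 0.27, adjusted p = 0.00471), and Ifngr1 had 184, 166 and 186 CPM in N and 76.6, 98.0 and 89.1 in KP (log2 fold change -1.02, standard error 0.17, adjusted p = 0.00609). Neither pair of groups overlapped. Tyk2, the kinase bound to the type I receptor, was the gene called higher in total mRNA (log2 fold change 0.61, adjusted p = 0.242), a call lost in 4 of the 6 fits that leave out 1 library (adjusted p of up to 0.514). In polysome-associated mRNA its log2 fold change was 0.76 (edgeR, adjusted p = 0.0282), a call kept in all 6.

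Of the 15 tested genes that sense nucleic acids or induce interferon, 3 were called lower and 2 higher in total mRNA (edgeR, adjusted p under 0.25), where 15.2% of all tested entries were lower and 13% higher. In polysome-associated mRNA 7 were lower and 1 higher, against 22.9% and 20.4% of all. Tlr3, the receptor of double-stranded RNA in endosomes, was lower in total mRNA, at 62.1 ± 8.25 CPM in N and 29.98 ± 15.5 in KP (adjusted p = 0.135), but it was not called without KP replicate 1 or 2 or N replicate 3 (adjusted p of up to 0.356). In polysome-associated mRNA its log2 fold change was -1.35 (edgeR, adjusted p = 0.0267), a call kept in all 6 fits that leave out 1 library (adjusted p of up to 0.113). Irf8 was higher in total mRNA, with 0.086, 0.26 and 0.28 CPM in N and 1.03, 3.52 and 0.19 in KP, and KP replicate 3 lay within the N range (log2 fold change 2.92, adjusted p = 0.121). Without KP replicate 2 it was 1.55 (adjusted p = 0.443), and 8 libraries had under 30 reads of Irf8. Of the 12 negative regulators, 3 were higher in total mRNA, all of them subunits of the RNase H2 complex (Rnaseh2a, Rnaseh2b and Rnaseh2c), and Nlrx1 was lower at a log2 fold change of -1.21 (adjusted p = 0.0855). Rnaseh2c was at 50.4 ± 5 CPM in N and 75.0 ± 14.3 in KP (SD, n = 3, edgeR, adjusted p = 0.214). Leaving out 1 library at a time, the calls of Rnaseh2a and Rnaseh2b were lost in 4 of 6 fits each, that of Rnaseh2c in 5 and that of Nlrx1 in 2, with adjusted p of up to 0.461. In polysome-associated mRNA Rnaseh2c had a log2 fold change of 1.20 (edgeR, adjusted p = 0.0230), a call kept in all 6 fits. Rnaseh2a and Rnaseh2b were also called higher there, calls lost in 3 and 2 of 6 fits.

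A further list of interferon-stimulated genes that are not members had 39 tested entries, of which 19 were called lower and 0 higher in total mRNA (edgeR, adjusted p under 0.25), against 15.2% and 13% of all tested entries, with a median log2 fold change of -0.81. In polysome-associated mRNA 22 were lower and 1 higher (Daxx), against 22.9% and 20.4% of all, with a median of -1.07. Lgals9 stands in this list and in that of T cell and NK cell ligands. Oas3 had 1.32, 1.28 and 2.70 CPM in total mRNA of N and 0.13, 0.071 and 0.15 in KP (log2 fold change -3.85, standard error 0.69, adjusted p = 0.00835). Cmpk2, a mitochondrial nucleotide kinase, had 1.17, 3.28 and 2.82 CPM in N and 0.26, 0.19 and 0.46 in KP (log2 fold change -2.98, adjusted p = 0.0217). Oas3 had under 30 reads in 11 libraries and Cmpk2 in 6.

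Of 21 entries for MHC class I chains and their loading, 9 were called lower and 0 higher in total mRNA (edgeR, adjusted p under 0.25), against 15.2% and 13% of all tested entries, with a median log2 fold change of -0.47. In polysome-associated mRNA 8 were lower and 1 higher (the entry of H2-Q6 with H2-Q8), against 22.9% and 20.4% of all. The lipid-presenting Cd1d1 and the metabolite-presenting Mr1 had the largest differences in total mRNA, with log2 fold changes of -2.54 (adjusted p = 0.124) and -1.79 (adjusted p = 0.0671). Of the classical chains, H2-K1 was just inside the threshold in total mRNA, at 239 ± 52.8 CPM in N and 164 ± 35.3 in KP (SD, n = 3, edgeR, adjusted p = 0.247), and was not called in polysome-associated mRNA (adjusted p = 0.664). The entry of H2-D1 with H2-L was at 291 ± 49.8 and 257 ± 34.9 CPM in total mRNA (adjusted p = 0.701). MHC class I genes are near-identical copies, and reads that matched several places were discarded, so their counts are uncertain. Of 7 tested entries of the list of T cell and NK cell ligands, Cd80, Pvr and Lgals9 were called lower and none higher in total mRNA, with Cd80 at a log2 fold change of -1.96 (adjusted p = 0.128) and Pvr at -1.16 (adjusted p = 0.172). Cd80 had 2 to 56 reads in a library, so its value is imprecise. Leaving out 1 library at a time, the calls of Cd1d1, H2-K1, Cd80 and Pvr in total mRNA were each lost in 2 or more of 6 fits, with adjusted p of up to 0.577.

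How the members varied between replicates was described by 1 value for each library. For each, the median over the 32 tested entries was taken of log2 CPM relative to the mean of the gene in that fraction. In total mRNA this median was 0.23, 0.77 and 0.96 in vehicle-treated N replicates 1, 2 and 3 and 0.057, 0.68 and 1.28 in the CR-31-treated ones. N replicate 1 was the lowest of its group for 22 of the 32 members under vehicle (39% of all tested entries) and for 26 under CR-31 (37.8% of all). In KP the medians were -0.69, -0.98 and -0.29 under vehicle and -0.60, -0.73 and -0.18 under CR-31, and replicate 3 was the highest of its group for 25 and 21 members, against 31.3% and 29.5% of all tested entries. All 6 KP libraries lay below all 6 N libraries in this median in each fraction.

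KP replicate 3 was high in both fractions and not only in the library with leukocyte markers. Its polysome library under vehicle lay above the mean of the other 2 for 30 of the 32 members, by a median of 0.68 on the log2 scale, and its total mRNA library for 28 members, by a median of 0.53. In that total mRNA library, the leukocyte markers summed to 2.48 CPM. Oasl2 lay 2.16 and Psmb8 1.67 above the other replicates in total mRNA, beside 1.72 and 2.10 in polysome-associated mRNA. Rtp4 lay 1.62 above in total mRNA and 1.67 above in polysome-associated mRNA, and Ifit1 lay 1.46 and 1.76 above. Ifit3 differed from these, with 0.17 in total and 2.31 in polysome-associated mRNA. The part of the leukocyte RNA in these values was not tested.

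**Figure D3:**
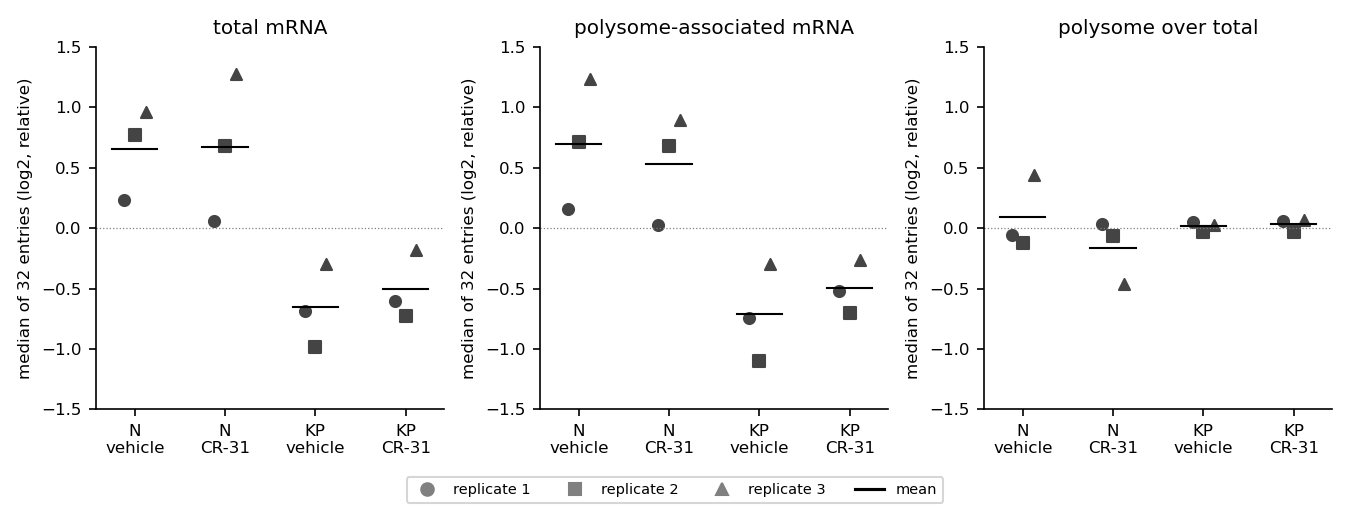
Median over the 32 tested entries of the relative log2 value in each library, by group, for total mRNA, polysome-associated mRNA and the ratio of both, with a marker shape for each replicate number and a line at the mean of 3. N libraries lie above KP libraries in both fractions, and in the ratio N replicate 3 lies at 0.44 under vehicle and at -0.47 under CR-31.

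**Figure D4:**
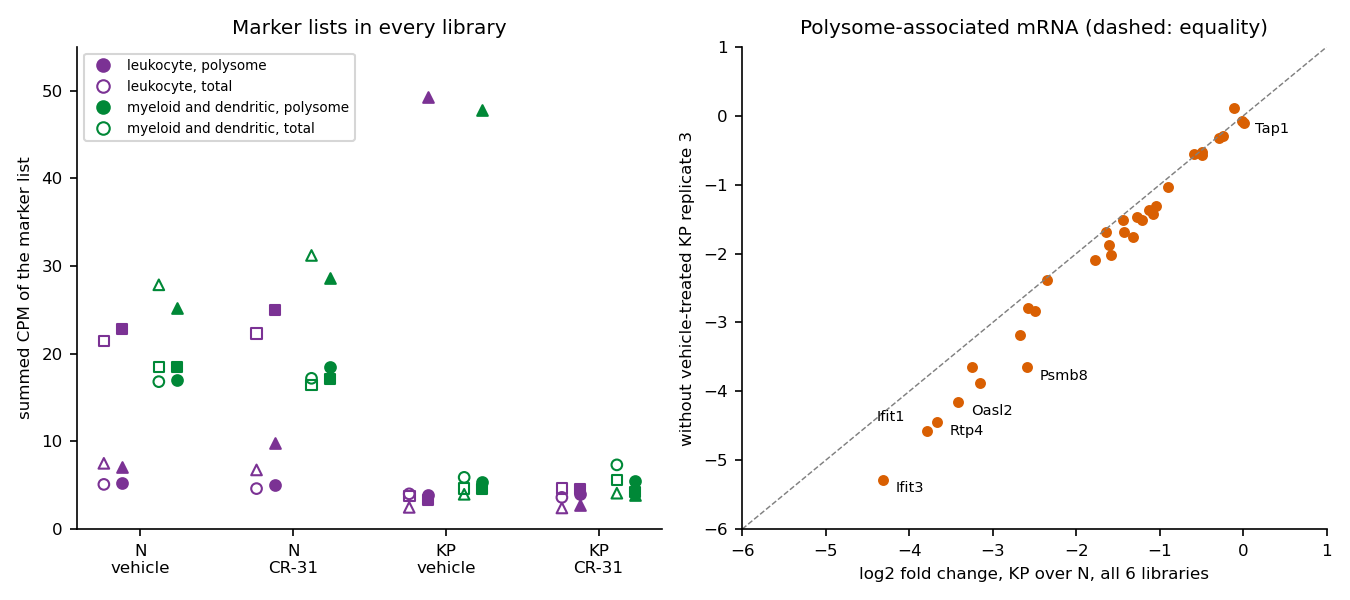
Left, summed CPM of the leukocyte and the myeloid and dendritic marker lists in every library (circles, squares and triangles for replicates 1, 2 and 3), where the polysome library of vehicle-treated KP replicate 3 stands at 49.3 and 47.8. Right, log2 fold change between vehicle-treated KP and N in polysome-associated mRNA with all 6 libraries (x axis) and without that replicate (y axis), where Bst2 and Oas1a lie above the line of equality and the other members below it.

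The second comparison asked whether the same difference holds in organoids treated with CR-31. In total mRNA 22 members were called lower and 0 higher in KP than in N (edgeR, adjusted p under 0.25, n = 3 each), against 20.8% lower among all tested entries. In polysome-associated mRNA 18 were lower and 0 higher, against 13.4% of all. At an adjusted p under 0.05, 13 were lower in total mRNA (5.3% of all) and 4 in polysome-associated mRNA (3.47% of all). The medians were -1.29 and -1.14. Ifit3 had 2.92, 8.44 and 11.5 CPM in total mRNA of CR-31-treated N and 0.39, 0.30 and 0.64 in KP, and the log2 fold change was -4.10 (standard error 0.62, adjusted p = 0.00435). Of the 5 RNA sensors, Ddx58 and Ifih1 were called lower in total mRNA, with log2 fold changes of -0.72 and -1.31 (adjusted p of 0.112 and 0.114). None was called in polysome-associated mRNA, where their log2 fold changes ran from -0.38 to -0.064. The vehicle-treated libraries, among them the one with leukocyte markers, enter these contrasts only through the shared estimate of the spread. Without CR-31-treated KP replicate 1, 9 members were called lower in polysome-associated mRNA, against 5.06% of all tested entries.

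The third comparison asked whether 1 h of CR-31 changes these mRNAs. In KP organoids 0 members were called in total or in polysome-associated mRNA, and 0 had an unadjusted p under 0.05 (edgeR, n = 3 each). In N organoids likewise 0 members were called in either fraction, and 0 had an unadjusted p under 0.05. Over all tested entries 0% were called in each of these 4 tests, while 422 entries in KP and 49 in N had an unadjusted p under 0.05 in polysome-associated mRNA and 117 and 322 in total mRNA. These 4 tests did not pair vehicle and CR-31 libraries by replicate number. A fit with that pairing, given below for polysome-associated mRNA of KP only, called 10.5% of all tested entries higher and 10.3% lower. The study, with another method (anota2seq), reported marked changes in the KP translatome and minimal ones in N, so the counts are not like for like. In polysome-associated mRNA the median log2 fold change of the members was 0.21 in KP and -0.16 in N, and in total mRNA it was 0.25 and 0.16. With CR-31, 0 genes of the further lists were called in polysome-associated mRNA of KP or N. The difference between the effects in KP and in N, tested as an interaction in polysome-associated mRNA, was called for 0 members and for 0% of all. That test did not use the pairing either.

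Eif2ak2, Ifih1 and Stat2 had the lowest unadjusted p in polysome-associated mRNA of KP. Eif2ak2 had 17.7, 14.6 and 18.8 CPM with vehicle and 24.4, 26 and 20.3 with CR-31, without overlap, and its log2 fold change was 0.47 (standard error 0.25, edgeR, adjusted p = 1.00). Ifih1 had 3.22, 2.50 and 3.38 CPM with vehicle and 5.21, 4.60 and 3.97 with CR-31, and its log2 fold change was 0.60 (standard error 0.35, adjusted p = 1.00). Stat2 had 4.61, 3.81 and 7.18 CPM with vehicle and 6.93, 8.14 and 8.07 with CR-31, and the groups overlapped. In N the same genes gave log2 fold changes of 0.039, -0.46 and -0.30.

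In KP, 16 members were higher with CR-31 in all 3 replicates and 4 were lower in all 3 in polysome-associated mRNA, while in N 0 were higher and 5 lower in all 3. Over all tested entries these shares were 30.7% and 28.7% in KP and 9.85% and 11% in N. In replicate 2 of each type these ratios compare libraries of different lanes. The same-numbered vehicle and CR-31 libraries of an organoid type deviated together, and in a fit blocked on that number 7 members were called in polysome-associated mRNA of KP (edgeR, adjusted p under 0.25), 6 higher and 1 lower. These were Adar with Chrnb2, Ddx58, Eif2ak2, Ifit1, Rtp4 and Stat2, which were higher by 0.40 to 0.86 on the log2 scale (adjusted p of 0.195 to 0.243), and Psmb8, which had -0.38 (adjusted p = 0.223). With that block 10.5% of all tested entries were called higher and 10.3% lower, so counted in either direction the members were called about as often as all entries. In the fit without the block, leaving out the vehicle-treated library of KP replicate 3 moved the median log2 fold change of the members with CR-31 from 0.21 to 0.50, with 0 called in both. There, replicate 3 was left in the CR-31 group only. In the blocked fit without that library, 0 members and 0 of all tested entries were called (smallest adjusted p = 0.256), and the median of the members was 0.33. None of the 7 calls was kept, but in KP this fit compares the treatments in replicates 1 and 2 only. The 6 higher members had log2 fold changes of 0.47 to 1.09 in that fit, each above its value with all libraries (adjusted p of 0.256 to 0.282), and Psmb8 had -0.28 (adjusted p = 0.469). KP vehicle against N vehicle and CR-31 against vehicle in KP share the vehicle-treated KP libraries, so their values for a member are not independent.

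**Figure D5:**
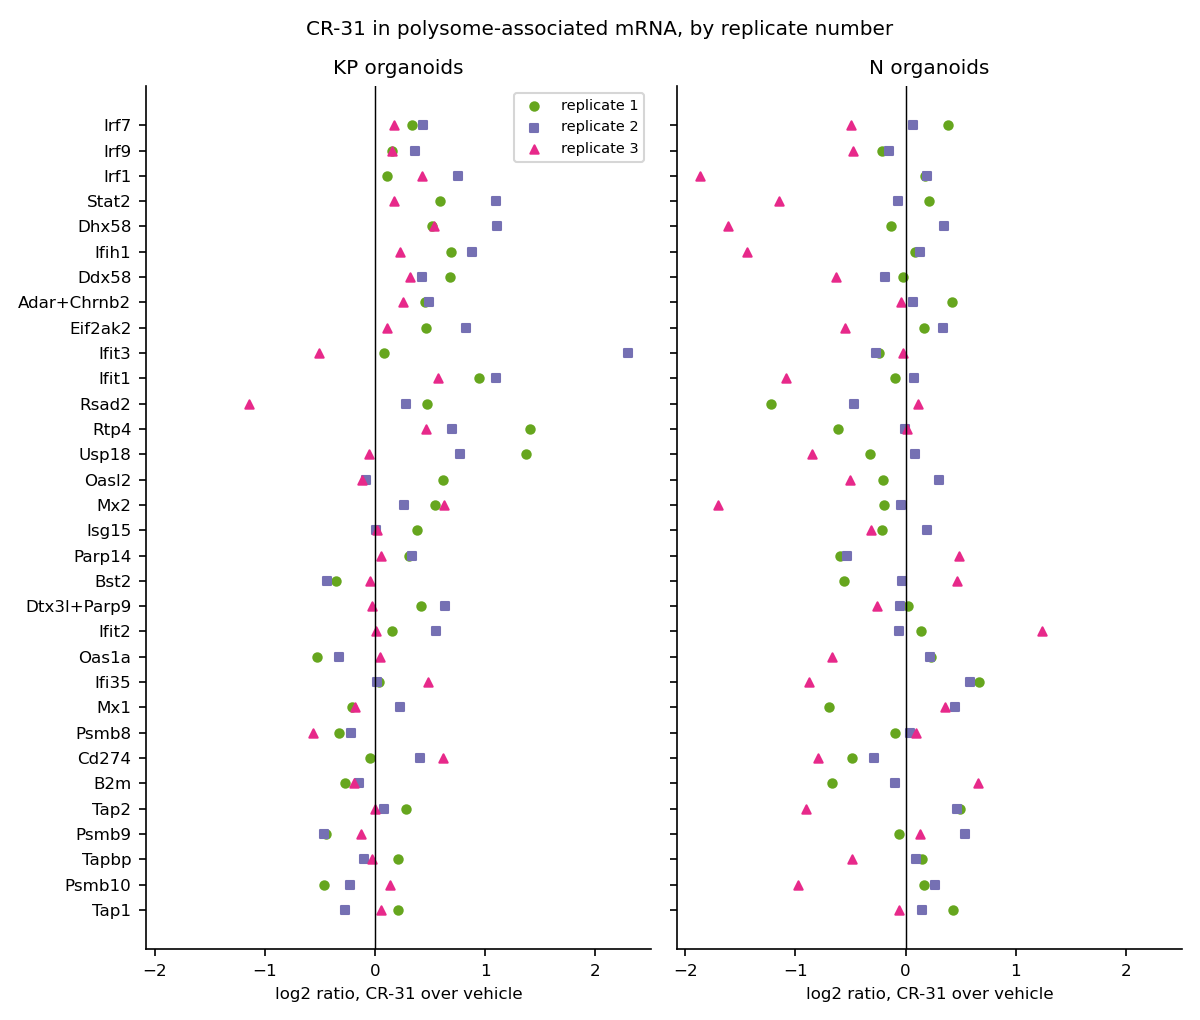
Log2 ratio of CR-31 over vehicle in polysome-associated mRNA for each tested entry, with replicates 1, 2 and 3 as green circles, violet squares and pink triangles, in KP (left) and N organoids (right). In KP 16 entries have all 3 points above 0, and in N replicate 3 lies apart from the others for many entries.

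The last comparison asked whether members differ in translational efficiency, the polysome-associated relative to the total level of a gene. Between vehicle-treated KP and N, 0 members and 0% of all tested entries were called (edgeR, fraction by group interaction, blocked on the lysate), and 4 members had an unadjusted p under 0.05, against 11.6% of all. The median log2 difference of the members was -0.061, and without vehicle-treated KP replicate 3 it was -0.13, with 0 called. Nor were any called with CR-31 in KP or in N, at 0% of all in each, where 2 and 3 members had an unadjusted p under 0.05, against 5.5% and 2.92% of all. These tests with CR-31 did not pair the treatments by replicate number. The study, with anota2seq, reported strongly differing KP and N translatomes and marked changes with CR-31 in KP. The 0 calls here come from another method and are not like for like. Parp14, an ADP-ribosyltransferase, had log2 ratios of polysome-associated to total mRNA of 1.09, 2.23 and -0.045 in N and -0.18, 0.19 and 0.0057 in KP. Its log2 difference in efficiency was -1.10 (standard error 0.48, adjusted p = 0.424). Ifih1 had ratios of 0.97, 1.96 and 2.18 in N and 0.91, 0.74 and 0.88 in KP, a difference of -0.86 (standard error 0.60, adjusted p = 0.538). Ddx58 had 0.00052, 0.27 and 0.50 in N and -0.58, -0.60 and -0.19 in KP, without overlap, and a difference of -0.71 (standard error 0.25, adjusted p = 0.424).

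N replicate 3 bore on this comparison. The median over the members of the relative log2 ratio was -0.054 and -0.12 in vehicle-treated N replicates 1 and 2 and 0.44 in replicate 3, and it was 0.035, -0.067 and -0.47 in the CR-31-treated ones. Without both N lysates of replicate 3, 14 members were called (edgeR, adjusted p under 0.25), 9 higher and 5 lower in KP, where 20.9% of all tested entries were higher and 15% lower. The 5 lower were Adar with Chrnb2, Ddx58, Eif2ak2, Parp14 and Stat2, and Parp14 had -1.62 (adjusted p = 0.0818). The 9 higher were B2m, Bst2, Ifi35, Irf7, Oas1a, Psmb8, Psmb9, Psmb10 and Usp18, with log2 differences of 0.38 to 1.08. With only the vehicle-treated lysate of N replicate 3 left out, 8 members were called, 5 higher and 3 lower, against 7.98% higher and 10.3% lower among all tested entries.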

How the data were processed

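The authors aligned read pairs with HISAT2 at default settings, dropped reads with several matches and counted the rest on coding RefSeq transcripts. They deposited these as raw counts for each entry and library, and as RPKM values computed from the same reads, which were used here only to order genes by level. SAMtools is also named in the submitters' processing notes. The human build hg38 is named in those notes and in the Methods, whereas the entries are mouse genes, so no gene coordinates are given except those of the RefSeq promoters. Whether counting used strand is not given in the sources used here, and 1042 entries list several symbols.

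The 34 members, the gene lists and the tests were chosen with earlier results of these data known. Groups came from the sample labels. Entries with a count above 0 in all 24 libraries were tested, a filter the study also used. The study further removed genes that its counting could not resolve, whereas entries listing several symbols were kept here. edgeR 4.0.16 (R 4.3.3) fitted the 4 groups in each fraction after TMM normalization, and translational efficiency in 1 model of all libraries. The study used anota2seq for its tests. All p-values are 2-sided, and adjusted p-values are Benjamini-Hochberg over the 12209 tested entries. Alternatives used DESeq2 1.42.0 and limma 3.58.1, and figures matplotlib 3.10.9. The script was tested on simulated data. Log values of single libraries used a prior count of 0.5. Counting error is small beside the spread between replicates except in the genes described as having few reads. Replicate libraries differed by a chi-square of 264 to 1583 for each entry, where noise alone gives about 1, so none was the same library deposited again.

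Values are given in every library for the 3 members of each role with the largest difference between KP and N in total mRNA, for the 3 with the lowest p for CR-31 in polysome-associated mRNA of KP, for the 3 with the largest difference in translational efficiency and for the 5 in which vehicle-treated KP replicate 3 lay furthest from its group. From each further list the 2 genes with the largest difference in total mRNA are given. Tap1, Tap2, Mx1, Mx2 and the other genes named beside these were chosen after their values were seen.

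To see whether libraries with the same replicate number belong together, deviations from the group means were correlated across genes. For vehicle with CR-31 r was 0.555 to 0.891 in N and 0.448 to 0.805 in KP and exceeded 0.1 in all 6 pairs of each type, so numbers pair the treatments within an organoid type. For N with KP r was -0.165 to 0.280, so they do not pair the types. The pairing rests on the numbers in the labels and on this check. Single items of the genotype and of the gene lists are not reported here.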

Additional observations from a re-analysis of the deposited data

How the results depend on the processing

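Other settings left the direction of the medians between KP and N in total and in polysome-associated mRNA as it was. Over the alternatives, 514 values of counts and medians stayed within their limits and 14 did not, and of the values of named members 635 kept their side of the threshold, 12 moved past it and 16 fell short of it. At an adjusted p under 0.05, 14 members were lower in total mRNA of KP under vehicle (5.29% of all tested entries), 13 under CR-31 (5.3%), and 4 in polysome-associated mRNA under CR-31 (3.47%). Leaving out 1 replicate at a time gave 21 to 27 members lower in polysome-associated and 15 to 23 in total mRNA under vehicle, and 9 to 19 and 18 to 24 under CR-31, the 9 without KP replicate 1.

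Under the replicate block within organoid type, 7 members were called with CR-31 in polysome-associated mRNA of KP, and 0 with the block and without vehicle-treated KP replicate 3, a setting chosen after seeing the data. The median log2 fold change with CR-31 in total mRNA of N was -0.31 with the sequencing lane as a term, and -0.29 to 0.39 with 1 replicate left out. For translational efficiency between vehicle-treated KP and N, DESeq2 called 1 member, and leaving out N libraries of replicate 3 gave 2 (CR-31), 8 (vehicle) or 14 (both), within a range of 0 to 14 over the replicates. Its median was -0.23 to 0.22 over these, with 0.15 without the vehicle-treated lysate, and that of CR-31 in N was -0.30 to 0.068. The causes were not tested. Upper-quartile scaling moved the median of all entries in polysome-associated mRNA from -0.049 to -0.13. It moved the share of higher calls there from 47.2% to 39.2%. Limits to single-symbol entries and to members that were not low were chosen after seeing the data. With 3 replicates and few reads, Mx2, Rsad2, Usp18, Ifit1 and Ifit3 are measured imprecisely in KP.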
